A study of Mus musculus and Homo sapiens with 15 samples.

Results

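The levels of 9 genes of the Notch pathway and of T-cell lymphoma were followed in mouse tumours with and without arsenic trioxide (ATO). They are the receptors Notch1 and Notch3, the Notch regulators Dtx1 and Nrarp, the target genes Hes1 and Myc, and the lineage and driver genes Lmo2, Ikzf1 and Bcl11b. The genes were taken by symbol from the authors' count tables, which list 52340 genes for the thymus tumours and 56691 for the grafted tumours, and each of the 9 symbols was found in each table and passed the filter on low counts in both. The thymus tumours came from W/W mice, in which both alleles of p53 carry R282W, and were sampled at day 150 after birth. The groups were 3 samples from mice given water, 3 from ATO-treated mice whose T-lymphomas were progressing and 3 from ATO-treated mice whose T-lymphomas were regressing. A separate set of tumours, labelled as a CDX model in C57 mice with the genotype WT and called grafts here, gave 2 samples after PBS and 2 after ATO. The labels name neither the grafted cells nor the dose or duration of ATO, and the U937 cell samples of the series were not used here. The outcome defines the progressing and regressing groups, so treatment and outcome cannot be told apart when either is compared with water, and both comparisons use the same 3 water libraries.

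Notch receptors sit in the cell membrane and are cut when a ligand of the Delta or Jagged family on a neighbouring cell binds them. The released intracellular part enters the nucleus, joins the DNA-binding protein RBPJ and co-activators of the Mastermind family, and switches on target genes such as Hes1, Dtx1, Nrarp, Ptcra and Myc. In the thymus, Notch1 signalling directs blood progenitors to the T-cell fate, and activating changes of Notch1 are common in T-cell leukaemia and lymphoma of mice and people. Bcl11b fixes T-cell identity, Ikzf1 encodes the zinc-finger protein Ikaros that restrains Notch targets, and Lmo2 is an adaptor of early blood progenitors whose persistence drives T-cell leukaemia.

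Levels are given in CPM, which scales the counts of a library to its TMM-adjusted size, and differences as log2 fold changes. Tests are edgeR's quasi-likelihood tests, and adjusted p-values are Benjamini-Hochberg values over all genes tested. A gene passed at an adjusted p under 0.05. Total counts were 12800367 to 17550594 per thymus library and 12922147 to 15637644 per graft library, and the TMM factor stood apart at 0.747 in water replicate 2 and 0.794 in progressing replicate 2, against 1.03 to 1.16 in the other thymus libraries. The labels do not say whether the samples of a group came from separate animals. So p-values measure only the spread between these samples, which may be technical. Regressing replicates 1 and 2 were the most alike of the thymus pairs within a group. Their difference, as chi-square per gene, was 12.25. It was 133.98 between regressing replicates 1 and 3 and 107.01 between replicates 2 and 3. The regressing libraries may thus not be equally independent, which bears on every p-value of that group and was not tested. All 8 T-cell markers were detected in every library. In the thymus tumours the summed T-cell markers were 1308 to 2023 CPM after water, 2179.8 to 3712 CPM in progressing tumours and 2997 to 4903 CPM in regressing tumours. The 6 B-cell markers also differed between groups, with sums of 266 to 3221 CPM after water, 3.21 to 33.6 CPM in progressing tumours and 111 to 201 CPM in regressing tumours. Sums over the other marker lists overlapped between the thymus groups for endothelium (93.2 to 293 CPM) and macrophages (153 to 1447 CPM), and ran to 1323 CPM for fibroblasts and pericytes and 4423 CPM for adipocytes, the latter in 1 regressing library. Counts from the mitochondrial genome were 2.55% to 3.79% after water, 4.70% to 8.83% in progressing and 2.08% to 8.48% in regressing tumours, so progressing and water libraries did not overlap in this share, and its part in the results below was not tested. In bulk tissue, fewer cells of a type and less RNA per cell cannot be told apart.

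Against water, 5 of the 9 genes passed the test in progressing tumours, where 11.9% of all genes tested passed, 4.77% higher and 7.13% lower. Notch1, Notch3 and Bcl11b were higher, and Myc and Lmo2 were lower. In regressing tumours 3 of the 9 passed, Bcl11b higher and Myc and Lmo2 lower, where 7.70% of all genes tested passed, 3.13% higher and 4.57% lower. Between the outcomes under ATO, Notch1 alone of the 9 passed, lower in regressing tumours, where 12.6% of all genes tested passed, 6.45% higher and 6.18% lower. In the grafts none of the 9 passed between ATO and PBS, where 13.9% of all genes tested passed, 7.37% higher and 6.57% lower. There, 3 of the 9 had an unadjusted p under 0.05, a share similar to that of all genes (4921 of 15468 tested). DESeq2 called 2 of the 9 and limma-voom 1. The shares of all genes called by these tools in the grafts are not given here, so these counts cannot be set against them.

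**Figure D1:**
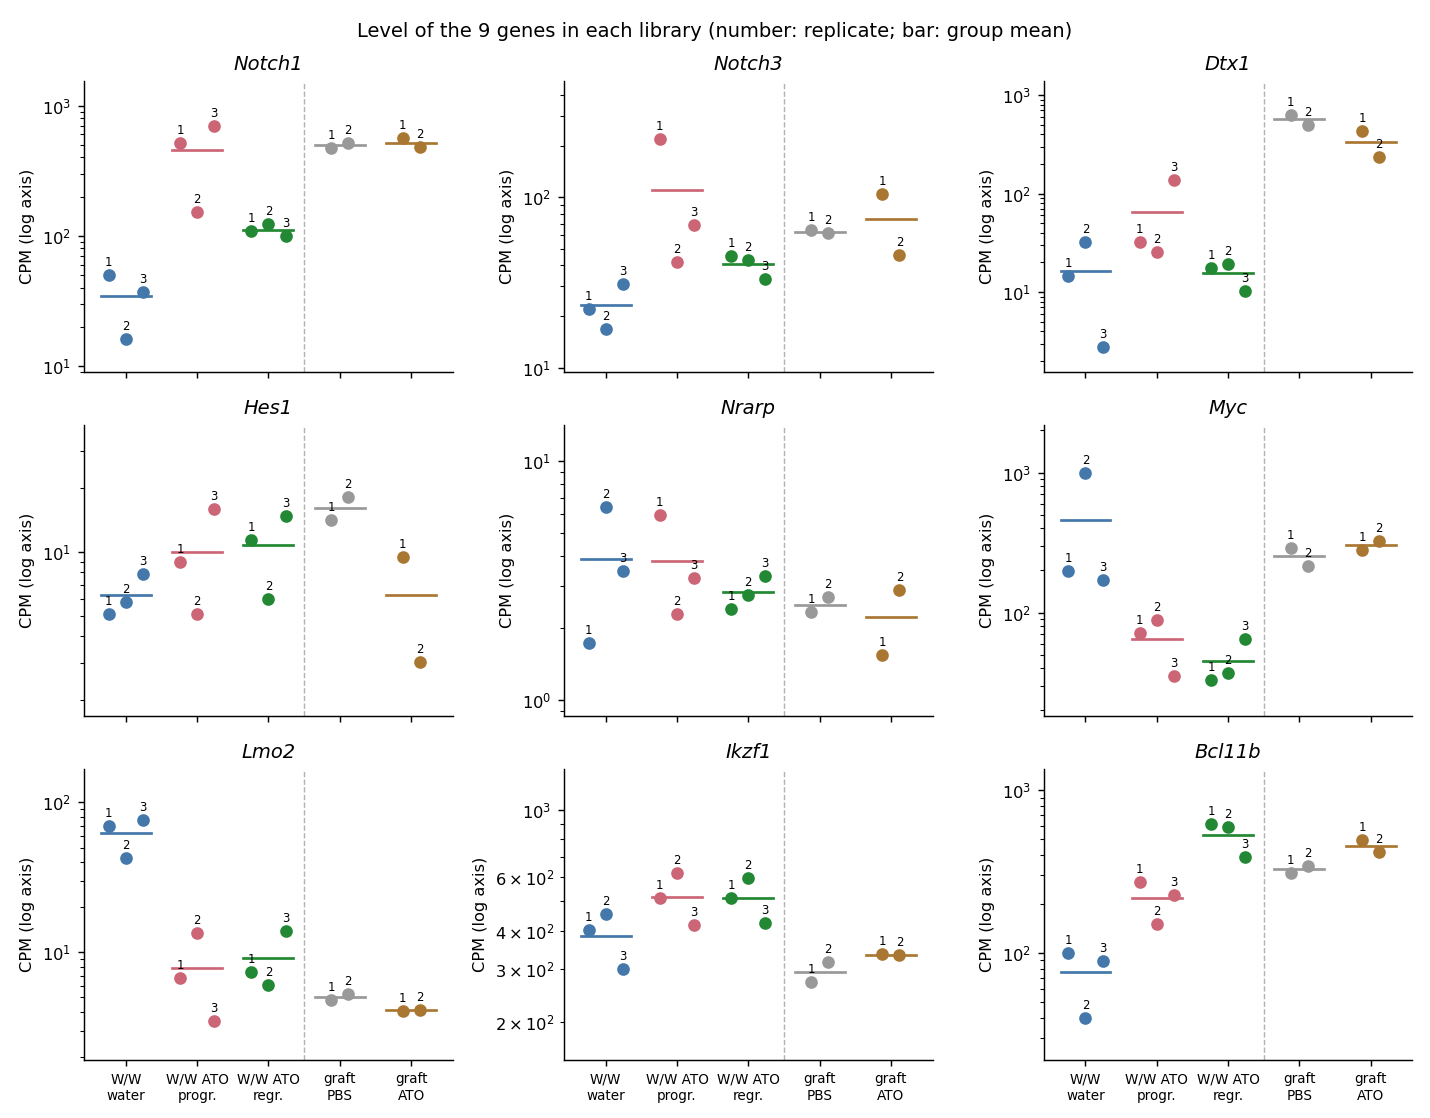
CPM of each of the 9 genes (log axis) in every library, with the replicate number above each point and the group mean as a bar; the dashed line separates the W/W thymus tumours from the grafts, which come from separate tables. Notch1 was above 99 CPM in all 6 ATO-treated thymus libraries and at most 50.2 CPM after water, while Lmo2 had the opposite order.

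Promoter sequences are shown for Notch1, Notch3 and Bcl11b, which passed in the same direction in progressing tumours, and for Nrarp, the only member in which a searched motif was found. Each is the 250 bases before the RefSeq start on GRCm38.p6, written 5′ to 3′ on the gene's own strand. Capitals mark the CACGTG letters of the MYC E-box, and the other sequences have none. The Notch1 window is chr2:26503823-26504072 (minus strand, 66.0% G and C), that of Notch3 chr17:32166891-32167140 (minus strand, 68.8%), that of Bcl11b chr12:108003415-108003664 (minus strand, 44.8%) and that of Nrarp chr2:25180508-25180757 (plus strand, 61.2%).
Notch1: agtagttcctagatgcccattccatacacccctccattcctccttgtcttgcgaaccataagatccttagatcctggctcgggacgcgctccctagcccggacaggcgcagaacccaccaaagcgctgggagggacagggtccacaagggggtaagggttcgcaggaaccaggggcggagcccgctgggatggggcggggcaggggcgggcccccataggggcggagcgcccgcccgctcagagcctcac
Notch3: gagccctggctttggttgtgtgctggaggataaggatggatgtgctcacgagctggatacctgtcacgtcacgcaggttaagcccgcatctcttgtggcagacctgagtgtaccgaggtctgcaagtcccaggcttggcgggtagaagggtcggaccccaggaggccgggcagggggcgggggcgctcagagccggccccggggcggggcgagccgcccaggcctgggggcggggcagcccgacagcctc
Bcl11b: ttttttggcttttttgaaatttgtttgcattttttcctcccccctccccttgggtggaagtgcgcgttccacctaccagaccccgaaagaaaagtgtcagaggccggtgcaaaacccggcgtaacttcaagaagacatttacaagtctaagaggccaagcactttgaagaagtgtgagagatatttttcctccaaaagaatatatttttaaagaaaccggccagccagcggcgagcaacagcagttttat
Nrarp: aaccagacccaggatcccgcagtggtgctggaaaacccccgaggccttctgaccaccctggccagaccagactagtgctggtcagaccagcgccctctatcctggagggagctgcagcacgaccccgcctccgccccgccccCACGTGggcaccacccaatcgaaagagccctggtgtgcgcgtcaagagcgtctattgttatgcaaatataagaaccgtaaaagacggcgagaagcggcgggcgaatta

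Promoters were matched for 6 of the 9 members (these 4, Dtx1 and Ikzf1). Each was searched on both strands for TGGGAA, the core shared by RBPJ and Ikaros sites, for TGTGGT of the RUNX family, for CACGTG bound by MYC with MAX, and for CAGGTG bound by E proteins. Among 32851 promoters of the same length, 21.6% held TGGGAA, 14.0% TGTGGT, 6.02% CACGTG and 17.2% CAGGTG. Of the 6 matched members, Nrarp held CACGTG from 108 to 103 bases before its start, and no other match was found. A match is a description of the letters and not a measured site.

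Notch1, which directs T-cell fate (ENSMUSG00000026923, GRCm38 chromosome 2, 26457903 to 26516663), was the member with the largest rise in progressing tumours. Its levels were 50.2, 16.2 and 36.9 CPM in water replicates 1, 2 and 3, and 517, 154 and 702 CPM in the progressing replicates. The regressing replicates had 109.7, 122 and 99.6 CPM. The 3 groups did not overlap: every regressing library lay above every water library and below every progressing library. Progressing tumours exceeded water 13.3-fold (log2 fold change 3.73 ± 0.59 SE, adjusted p = 0.00515), and all 13 alternative settings kept this call. Regressing tumours were 3.21-fold above water, which did not pass (log2 fold change 1.68 ± 0.54 SE, adjusted p = 0.0779). That difference passed in 4 of 13 alternatives, with adjusted p-values over all 13 from 0.00250 to 0.227.

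The test between the outcomes put Notch1 4.14-fold lower in the regressing group (log2 fold change −2.05 ± 0.55 SE, adjusted p = 0.0374). The 3 progressing libraries were unequal, replicate 2 lying well below the others. The call between outcomes was kept without progressing replicate 2 (−2.43, adjusted p = 0.0248). It was lost without progressing replicate 1 (−1.95, adjusted p = 0.0672) or replicate 3 (−1.60, adjusted p = 0.114), and without regressing replicate 1, 2 or 3 (−2.03, −2.12 and −1.92, adjusted p = 0.128, 0.113 and 0.121). With limma-voom it also missed the threshold (−1.79, adjusted p = 0.0530). Parts of 2 genes on the opposite strand lie over 2.91% and 7.5% of the exonic length of Notch1, and whether counting was by strand is not given in the sources used here.

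Notch3, a receptor of immature thymocytes (ENSMUSG00000038146, chromosome 17, 32120820 to 32166852), had 22.0, 17 and 30.9 CPM after water. Progressing replicates had 219, 41.8 and 68.4 CPM, and regressing replicates 45.3, 42.8 and 33.2 CPM. All 6 ATO libraries were above all 3 water libraries, and progressing replicate 1 stood far above the other 5. The rise was 4.72-fold in the progressing group (log2 fold change 2.24 ± 0.55 SE, adjusted p = 0.0279), and in regressing tumours the difference was 1.74-fold and did not pass (adjusted p = 0.355). The call in progressing tumours was lost at a similar size without water replicate 1, 2 or 3 (2.2, 2.10 and 2.49, adjusted p = 0.0770, 0.0648 and 0.0503). It was lost at a smaller size without progressing replicate 1 (1.25, adjusted p = 0.0681). It was also lost with limma-voom (1.92, adjusted p = 0.0607) and when only the compared groups were fitted (2.24, adjusted p = 0.0725). Between the outcomes Notch3 did not pass (log2 fold change −1.44 ± 0.54 SE, adjusted p = 0.0983). An antisense gene lies over 6.03% of its exonic length.

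Per length, the balance of the receptors differed between groups. Water replicates 1, 2 and 3 had 1.30, 0.542 and 0.679 times as much Notch1 as Notch3, by the deposited FPKM values. The ratio was 1.34, 2.09 and 5.83 among progressing replicates, and regressing replicates gave 1.38, 1.63 and 1.71. PBS grafts had ratios of 4.22 and 4.77, and ATO grafts had 3.06 and 5.93. Every ATO-treated thymus library was above every water library in this ratio, and progressing and regressing libraries overlapped. These ratios were not tested.

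Of the other receptors, Notch2 had 5.41 to 9.77 FPKM after water, 2.5 to 9.08 FPKM in progressing and 5.06 to 6.26 FPKM in regressing tumours. Notch4, the receptor of vessel endothelium, stayed at or below 2.21 FPKM in all thymus libraries. Neither passed in a thymus comparison. So after water Notch2 was the most abundant receptor per length in every library, and in progressing tumours Notch1 exceeded it in every library.

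Among the ligands, Dll1 was the only gene to pass in the thymus tumours, 11.9 ± 5.74 CPM in regressing (SD, n = 3) against 1.72 ± 1.36 CPM in progressing tumours (SD, n = 3), a log2 fold change of 2.80 (SE 0.73, adjusted p = 0.0347). It kept its call only without progressing replicate 2, and the other 5 fits that each left out 1 library gave 2.37 to 3.01, with adjusted p-values of 0.0585 to 0.101 (0.0585 and 0.101 without progressing replicates 1 and 3, and 0.0943, 0.0829 and 0.0947 without regressing replicates 1, 2 and 3). Dll4, the ligand by which thymic epithelium drives the T-cell fate, had 1.68 to 4.13 CPM after water, 1.60 to 11.6 CPM in progressing and 11.9 to 15.2 CPM in regressing tumours. Its regressing libraries were above all others, and it did not pass against water (adjusted p = 0.0767) or against progressing tumours (adjusted p = 0.257). Jag1 and Jag2 did not pass in the thymus tumours. The sum of the 7 thymic epithelium markers was also highest in regressing tumours, at 1466 to 1673 CPM. It was 110.3 to 778 CPM after water and 39.3 to 96.7 CPM in progressing tumours, without overlap, while Dll4 overlapped between those groups. None of these markers was at 0 in a thymus library, and the part of thymic epithelium in the ligand levels was not tested.

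Dtx1, an E3 ubiquitin ligase of the Deltex family that acts on Notch and is itself a Notch target (ENSMUSG00000029603, chromosome 5, 120680202 to 120711927), passed in no thymus comparison. It had 14.4, 32.1 and 2.78 CPM after water, 32.0, 25.7 and 139 CPM in progressing and 17.6, 19.4 and 10.3 CPM in regressing tumours. The water libraries alone spanned an 11.6-fold range, and only progressing replicate 3, the library with most Notch1, stood well above it. All regressing libraries were below all progressing libraries, and both overlapped with water. The log2 fold change was 1.99 ± 0.83 SE in progressing tumours against water (adjusted p = 0.145), where Notch1 had 3.73 and Notch3 2.24. Between outcomes it was −2.06 ± 0.84 SE (adjusted p = 0.122), where Notch1 had −2.05 and Notch3 −1.44. Leaving out 1 library gave Dtx1 values of 0.82 to 2.94 against water. Between outcomes they were −2.40 to −0.88, the smallest size being without progressing replicate 3. In regressing tumours against water the Dtx1 value was −0.06 ± 0.81 SE (adjusted p = 0.968), and its sign turned in 9 of 13 alternatives.

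Nrarp, a small ankyrin-repeat protein that binds the nuclear Notch complex and damps it, lies on chromosome 2, 25180758 to 25183339 (ENSMUSG00000078202), next to the CACGTG letters shown above. Its levels were low, at 1.74 to 6.41 CPM after water, 2.28 to 5.92 CPM in progressing and 2.41 to 3.30 CPM in regressing tumours. The groups overlapped fully and no comparison passed (adjusted p = 0.672 to 0.991). An antisense gene lies over 79.4% of its exonic length, so its counts are uncertain without knowledge of the strand setting.

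Hes1, the repressor that is the best known Notch target (ENSMUSG00000022528, chromosome 16, 30064384 to 30067796), was also low. Water replicates had 5.09, 5.80 and 7.84 CPM, progressing replicates 9.0, 5.07 and 16.0 CPM and regressing replicates 11.4, 6.0 and 14.8 CPM. Progressing replicate 2 was just below the lowest water library and regressing replicate 2 was within the water range, while the other ATO-treated libraries were above it. The log2 fold changes against water were 0.68 ± 0.56 SE in progressing and 0.78 ± 0.56 SE in regressing tumours, and neither passed (adjusted p = 0.463 and 0.384). Thus in progressing tumours, where Notch1 passed, none of Dtx1, Nrarp and Hes1 did; whether their changes differed from that of Notch1 was not tested.

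Myc, the growth-promoting transcription factor and a Notch1 target in T-cell leukaemia (ENSMUSG00000022346, chromosome 15, 61985391 to 61990374), differed from water opposite to Notch1. This held in both ATO-treated thymus groups, though in regressing tumours Notch1 did not pass. Water replicates had 199.5, 996 and 171 CPM. Progressing replicates had 70.9, 87.8 and 35.3 CPM, and regressing replicates 32.9, 36.8 and 64.6 CPM. All ATO-treated libraries lay below all water libraries, the progressing and regressing libraries overlapped, and water replicate 2 was far above every other library. Against water, Myc was 7.04-fold lower in progressing (log2 fold change −2.82 ± 0.68 SE, adjusted p = 0.0262) and 10.2-fold lower in regressing tumours (−3.35 ± 0.70 SE, adjusted p = 0.0228). The difference between outcomes was −0.53 ± 0.64 SE and did not pass (adjusted p = 0.60).

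The size of the Myc difference depended on water replicate 2, the library with most B-cell markers. Without it the log2 fold changes were −1.51 in progressing (adjusted p = 0.0415) and −1.97 in regressing tumours (adjusted p = 0.0371), so both calls were kept at a smaller size. The progressing call was lost without progressing replicate 1, 2 or 3 (−2.89, −3.02 and −2.52, adjusted p = 0.0661, 0.0526 and 0.0948) and when only the compared groups were fitted (−2.77, adjusted p = 0.0534). The regressing call was lost without regressing replicate 1, 2 or 3 (−3.16, −3.22 and −3.59, adjusted p = 0.111, 0.124 and 0.0515). B-cell marker sums in water replicates 1, 2 and 3 were 1254, 3221 and 266 CPM. Water replicate 3, with the fewest B-cell markers of the water libraries, had more Myc than any ATO-treated library. Its B-cell marker sum was also above theirs, at 3.21 to 33.6 CPM in progressing and 111 to 201 CPM in regressing tumours. The part of B cells in the Myc difference was not tested.

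The ratio of Notch1 to Myc, in which gene lengths cancel when libraries are compared, put the water group apart. On the CPM scale water replicates 1, 2 and 3 had ratios of 0.252, 0.0163 and 0.215. Progressing replicates had 7.29, 1.75 and 19.9, and regressing replicates had 3.33, 3.32 and 1.54. The grafts gave 1.65 and 2.38 after PBS and 2.00 and 1.48 after ATO. All water libraries were below every other library, progressing and regressing libraries overlapped, and the ratio was not tested. Among the thymus libraries, the place of water follows from the Notch1 and Myc levels given above.

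**Figure D2:**
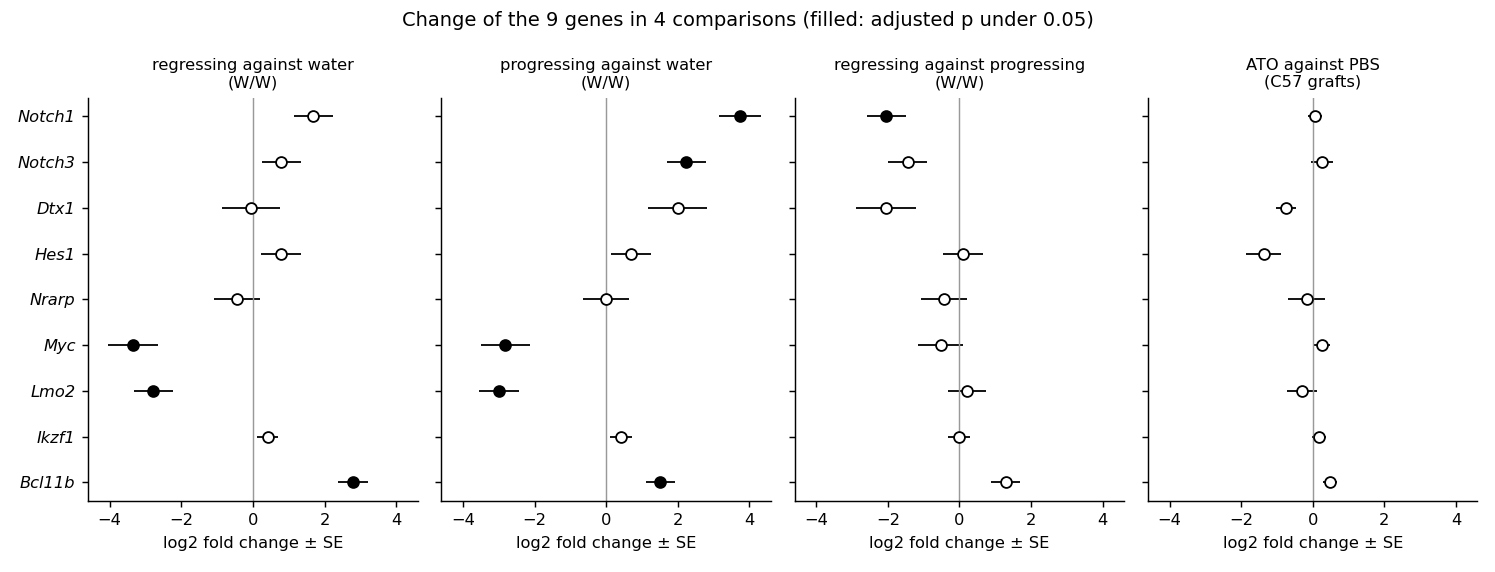
Log2 fold change (points) with its standard error (bars) for the 9 genes in each of the 4 comparisons, from edgeR's quasi-likelihood test; filled points have an adjusted p under 0.05. In progressing tumours Notch1 (3.73), Notch3 (2.24) and Bcl11b (1.51) passed above 0 and Myc (−2.82) and Lmo2 (−2.99) below 0, while no point of the grafts is filled.

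Lmo2 (ENSMUSG00000032698, chromosome 2, 103957986 to 103981878) separated the water group from all others. It had 69.3, 42.3 and 76.2 CPM after water, 6.78, 13.4 and 3.46 CPM in progressing and 7.36, 6.07 and 13.8 CPM in regressing tumours. The lowest water library was above every ATO-treated library, and both outcomes overlapped. Lmo2 was 7.94-fold lower in progressing (log2 fold change −2.99 ± 0.56 SE, adjusted p = 0.00983) and 6.88-fold lower in regressing than in water tumours (−2.78 ± 0.55 SE, adjusted p = 0.0197). The progressing call was kept in all 13 alternatives, and the regressing call was lost without regressing replicate 1 (−2.64, adjusted p = 0.105) or replicate 2 (−2.55, adjusted p = 0.118). Between outcomes the difference was 0.21 ± 0.52 SE (adjusted p = 0.814).

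Lmo2 is also expressed in other blood cells, among them B cells, so the marker sums stand beside it. Lmo2 was highest in water replicate 3, the water library with the lowest B-cell sum (266 CPM), and lowest in water replicate 2, the one with the highest (3221 CPM). Regressing libraries had B-cell sums of 111 to 201 CPM and Lmo2 of at most 13.8 CPM. Blk and Ms4a1 were at 0 in progressing replicate 1, and Pax5 was detected in all thymus libraries. The part of B cells in the Lmo2 difference was not tested.

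**Figure D3:**
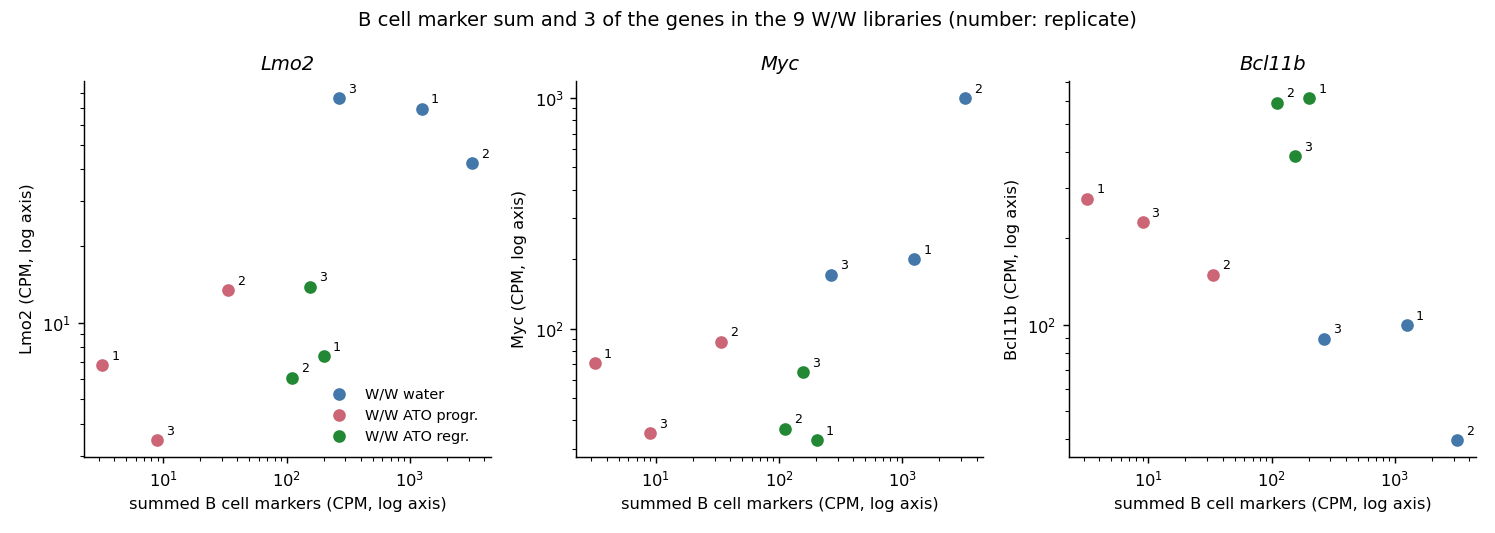
Level of Lmo2, Myc and Bcl11b against the summed level of 6 B-cell markers in the 9 thymus libraries (CPM, log axes), with replicate numbers. Myc was highest in water replicate 2, which has the largest marker sum (3221 CPM), while Lmo2 was highest in water replicate 3 (266 CPM).

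Bcl11b (ENSMUSG00000048251, chromosome 12, 107910403 to 108003602) separated all 3 thymus groups, as did Notch1, whose rising order was water, regressing, progressing. Its levels were 99.95, 39.8 and 89.6 CPM after water, 275, 149.7 and 228 CPM in progressing and 616, 594 and 386 CPM in regressing tumours. No groups overlapped, and the order was water, progressing, regressing. Bcl11b was 6.96-fold higher in regressing tumours than after water (log2 fold change 2.80 ± 0.42 SE, adjusted p = 0.00887), and this call was lost only without regressing replicate 2 (2.72, adjusted p = 0.0523) among 13 alternatives. In progressing tumours it was 2.85-fold higher (1.51 ± 0.40 SE, adjusted p = 0.0369). That call was kept without progressing replicate 2 and lost without progressing replicate 1 or 3 (1.31 and 1.48, adjusted p = 0.0891 and 0.0929), without water replicate 1, 2 or 3 (1.75, 1.23 and 1.63, adjusted p = 0.0537, 0.0536 and 0.0729) and when only the compared groups were fitted (adjusted p = 0.0919). The difference between outcomes was 1.29 ± 0.40 SE and did not pass (adjusted p = 0.0584). The T-cell marker sums given above had the same order of group means, and their part in the Bcl11b levels was not tested.

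Ikzf1 (ENSMUSG00000018654, chromosome 11, 11685003 to 11772926) differed little between groups. It had 403, 455 and 299 CPM after water, 511, 620.0 and 416 CPM in progressing and 512, 597 and 425 CPM in regressing tumours. The groups overlapped and no comparison passed, with log2 fold changes of 0.42 ± 0.31 SE for progressing and 0.41 ± 0.31 SE for regressing tumours against water (adjusted p = 0.403 and 0.409) and −0.01 ± 0.31 SE between outcomes (adjusted p = 0.983).

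Groups that do not overlap were also counted. In regressing tumours against water, 3 of the 9 genes lay wholly above and 2 wholly below (19.3% and 20.9% of all genes tested, 40.1% in all). In progressing tumours the counts were 3 above and 2 below (11.9% and 14.7%, 26.6% in all). Regressing lay above progressing tumours for 1 gene and below for 2 (21.4% and 20.6%, 42.0% in all), and in the grafts ATO lay above PBS for 2 genes and below for 3 (31.7% and 30.0%, 61.7% in all). Between outcomes and in the grafts the share of members was below that of all genes.

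Ranked per length within a group by the authors' FPKM, Myc led after water (137 ± 113 FPKM, SD, n = 3), followed by Ikzf1 (62.0 ± 9.03) and Lmo2 (28.6 ± 12.6), with Notch1 second from the bottom (2.43 ± 1.45). The spread of Myc spans the level of Ikzf1. In progressing tumours Ikzf1 led (84.3 ± 9.87), and Notch1 (32.6 ± 21.7), Bcl11b (26.5 ± 10.9) and Myc (22.2 ± 7.73) came next without differing beyond their spread. In regressing tumours Ikzf1 (97.8 ± 19.1) and Bcl11b (72.7 ± 20.2) led and overlapped in spread, and Notch1 (8.56 ± 1.14) was below Myc (17.9 ± 5.99). Nrarp was last in all 5 groups.

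The remaining Notch pathway genes, 59 in a list ordered by role, were counted by comparison. In progressing tumours, of 58 tested, 1 was higher and 8 were lower than after water, where 4.77% and 7.13% of all genes tested were, with a median log2 fold change of −0.01 against −0.04 for all genes. The gene that rose was Ptcra, the pre-T-cell receptor alpha chain and a Notch target. It was at 2 counts or fewer in every water library, while progressing replicates had 88.8, 2.03 and 29.9 CPM. Their mean was at least 199-fold higher than a floor of 3 counts per library. Regressing libraries had 16.5, 20 and 11.6 CPM of Ptcra, at least 79.1-fold above the floor. The edgeR test passed in both (adjusted p = 0.00493 and 0.0140), and limma-voom passed in neither (adjusted p = 0.0635 and 0.0731). The regressing call was also lost without regressing replicate 1 or 2 (adjusted p = 0.0532 and 0.0621).

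Of the genes that fell in progressing tumours, Lfng, a fucose-modifying enzyme that tunes which ligands a Notch receptor answers, had 80.5 ± 29.8 CPM after water (SD, n = 3) and 3.18 ± 1.48 CPM in progressing tumours (SD, n = 3), a log2 fold change of −4.66 (SE 0.54, adjusted p = 0.00151). All 6 fits that each left out 1 library kept it. Il7r, the interleukin-7 receptor and a Notch target, fell from 501 ± 463 CPM to 4.91 ± 4.25 CPM (−6.66 ± 1.28 SE, adjusted p = 0.0111), and lost its call without progressing replicate 3 (−6.36, adjusted p = 0.0520) and with limma-voom (adjusted p = 0.0965). The water libraries were unequal in Il7r, with 935, 14.0 and 555 CPM, and all 3 were above the progressing libraries. Of 5 genes for receptor glycosylation, 2 fell in each ATO group against water, Lfng and its relative Mfng. Of all genes tested, 7.13% were lower in progressing and 4.57% in regressing tumours. Of 10 Notch targets besides the members, 1 was higher and 4 were lower in progressing tumours. In regressing tumours 2 of these targets were higher and 1 was lower.

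In regressing tumours against water, 3 of 58 tested pathway genes were higher and 5 lower, where 3.13% and 4.57% of all genes tested were (median log2 fold change 0.17 against −0.11 for all genes). Higher genes were Ptcra and Il2ra, the interleukin-2 receptor alpha chain of early thymocytes (40.8 ± 6.37 against 7.38 ± 4.06 CPM, adjusted p = 0.0469). Lower genes included Psen2, a presenilin of the enzyme that cuts Notch (15.7 ± 6.94 against 67.1 ± 2.66 CPM, adjusted p = 0.0194), Lfng (21.3 ± 8.03 against 80.5 ± 29.8 CPM, adjusted p = 0.0382), Mfng (29.8 ± 2.80 against 96.7 ± 35.6 CPM, adjusted p = 0.0196) and Gimap5 (16.4 ± 0.349 against 63.3 ± 8.50 CPM, adjusted p = 0.0408). These calls were fragile: without regressing replicate 1 or 2, none of the list genes passed, and the calls of Il2ra and Gimap5 were lost in all 6 fits that each left out 1 library, with adjusted p up to 0.172 and 0.171.

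Between the outcomes, 6 of 58 tested pathway genes were higher in regressing tumours and 1 was lower, where 6.45% and 6.18% of all genes tested were (median log2 fold change 0.19 against −0.07 for all genes). The higher ones included Hey2, a repressor related to Hes1 (4.55 ± 1.31 against 0.24 ± 0.145 CPM, SD, n = 3, adjusted p = 0.0206), Il2ra (40.8 ± 6.37 against 4.46 ± 2.87 CPM, adjusted p = 0.0199), the co-activator Maml2 (26.2 ± 0.381 against 3.89 ± 3.56 CPM, adjusted p = 0.0270) and Dll1. The lower one was Kat2a, a histone acetyltransferase (47.8 ± 0.916 against 94.9 ± 19.0 CPM, adjusted p = 0.0492). Counts of higher genes ranged from 0 without regressing replicate 1 to 6 without progressing replicate 1, with 4 and 1 without progressing replicates 2 and 3 and 1 each without regressing replicates 2 and 3. Kat2a was called in none of these 6 fits. Hey2 and Il2ra lost their calls without progressing replicate 3 and without any regressing replicate (adjusted p = 0.0559 to 0.0787 and 0.05001 to 0.0734). Maml2 lost it in all but the fit without progressing replicate 1 (adjusted p = 0.0547 to 0.0869). Leaving out both libraries of low TMM factor gave 13 higher and 5 lower.

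**Figure D4:**
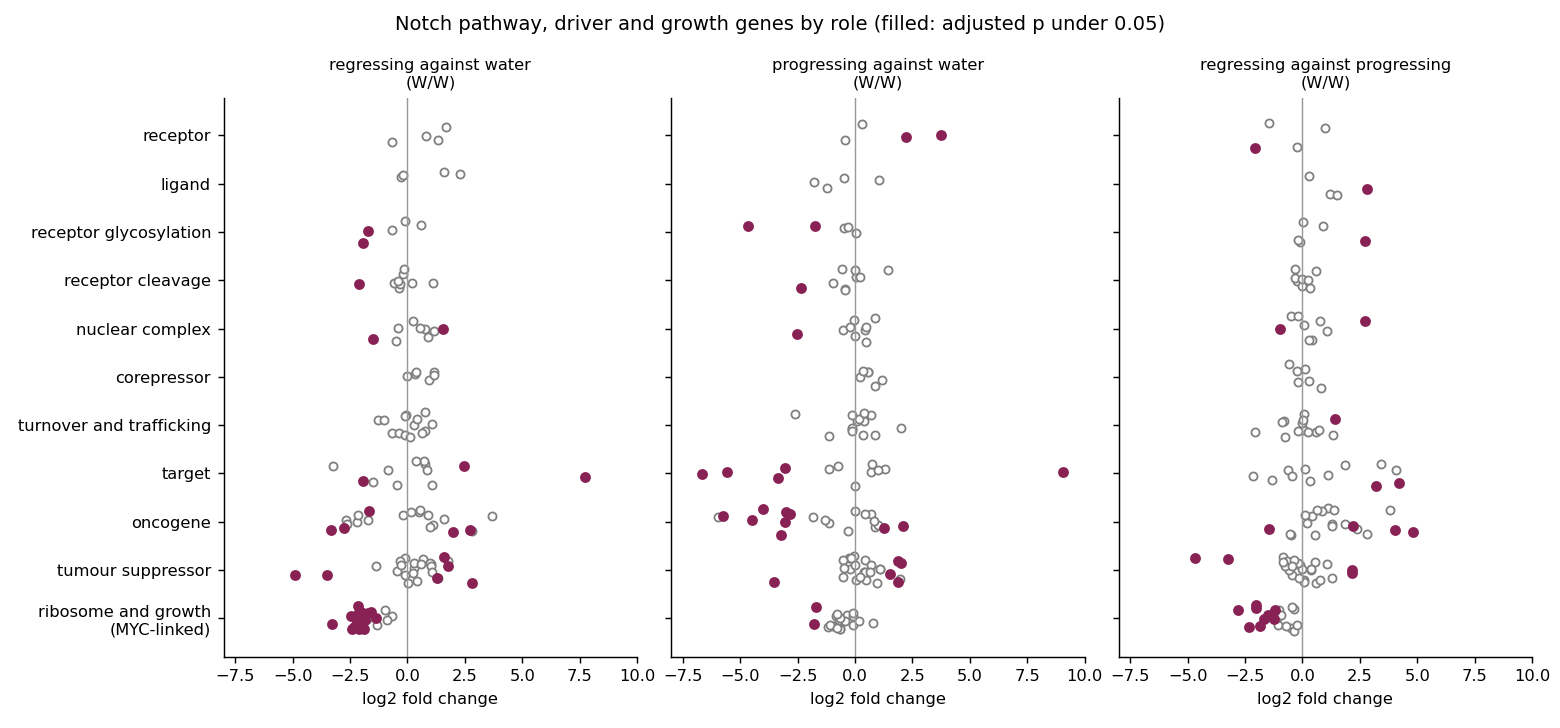
Log2 fold change of the tested Notch pathway, driver and growth genes in the 3 thymus comparisons, the 9 members included, 1 point per gene ordered by role; filled points have an adjusted p under 0.05. The growth genes are the row with most filled points in regressing tumours, 15 of 20 below 0, against 2 of 20 in progressing tumours.

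The other 47 T-lymphoma driver genes showed changes in both directions. Of 41 tested in progressing tumours, 5 were higher and 6 lower than after water, against the same shares of all genes, 4.77% and 7.13% (median log2 fold change 0.07 against −0.04 for all genes). The largest fall was that of Ccnd2, a D-type cyclin (5.44 ± 1.93 against 288 ± 78.7 CPM, SD, n = 3, log2 fold change −5.73 ± 0.46 SE, adjusted p = 0.000467), followed by Lyl1, Mef2c and the Ikaros relative Ikzf2 (26.6 ± 4.75 against 308 ± 160.4 CPM, adjusted p = 0.00247). Higher genes were the oncogene Myb (543 ± 115 against 127 ± 91.3 CPM, adjusted p = 0.0251), the glucocorticoid receptor Nr3c1 (384 ± 98.7 against 96.7 ± 6.78 CPM, adjusted p = 0.00487), Runx1 (178 ± 52.0 against 48.4 ± 7.45 CPM, adjusted p = 0.00626), the E protein Tcf12 (564 ± 111 against 154 ± 14.5 CPM, adjusted p = 0.00626) and Bmi1 (174 ± 67.1 against 73.1 ± 24.6 CPM, adjusted p = 0.0460). Bmi1 lost its call without water replicates 1 and 3 (adjusted p = 0.115 and 0.143), without progressing replicates 1 and 2 (adjusted p = 0.123 and 0.0683), with limma-voom (adjusted p = 0.0551) and when only the compared groups were fitted (adjusted p = 0.106). The calls of Ccnd2, Ikzf2, Nr3c1, Runx1 and Tcf12 were kept in all 6 fits that each left out 1 library. Myb lost its call without water replicate 1 (1.86, adjusted p = 0.0779) and without progressing replicates 1 and 3 (1.91 and 2.2, adjusted p = 0.0590 and 0.0555). Lyl1, also expressed in B cells, lost its call without water replicate 2 (−3.14, adjusted p = 0.0685) and without progressing replicates 2 and 3 (adjusted p = 0.0812 and 0.0972). Mef2c, likewise a B-cell gene, lost it without progressing replicate 1, 2 or 3 (adjusted p = 0.0512, 0.0531 and 0.0749). Without both libraries of low TMM factor, Myb, Lyl1 and Mef2c did not pass (adjusted p = 0.0632, 0.128 and 0.0734), and the part of B cells in the values of Lyl1 and Mef2c was not tested.

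In regressing tumours 5 of the 41 driver genes were higher than after water and 3 lower, against 3.13% and 4.57% of all genes (median log2 fold change 0.49 against −0.11 for all genes). Myb (832 ± 280.0 against 127 ± 91.3 CPM, adjusted p = 0.0169), Nr3c1 (331 ± 72.2 against 96.7 ± 6.78 CPM, adjusted p = 0.0133), the cyclin Ccnd3 (536 ± 123 against 135 ± 37.2 CPM, adjusted p = 0.0134) and the cyclin-dependent kinase inhibitor Cdkn1b (357 ± 108 against 117 ± 42.1 CPM, adjusted p = 0.0410) were among the higher genes. All of these calls were lost without regressing replicate 1 or 2, with adjusted p-values of 0.0646 to 0.163, and that of Cdkn1b also without water replicate 2 or 3 (adjusted p = 0.0944 and 0.0929).

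Cdkn2a, the locus of the cell-cycle inhibitors p16 and p19, was at 165, 455 and 151 CPM after water and at 135, 347 and 189.9 CPM in progressing tumours. Regressing tumours had 5.75, 1.55 and 18.5 CPM. All 3 regressing libraries were below every other thymus library, by a log2 fold change of −4.90 ± 0.87 SE against water (adjusted p = 0.0142) and −4.70 ± 0.86 SE against progressing tumours (adjusted p = 0.0145). Its neighbour Cdkn2b also passed in both comparisons, with −3.48 ± 0.87 SE and −3.23 ± 0.86 SE (adjusted p = 0.0393 and 0.0376). It lost the call against water without water replicate 2 or any regressing replicate (adjusted p = 0.0834 to 0.177), and that between outcomes in all fits but the one without progressing replicate 1 (adjusted p = 0.0695 to 0.133). The Cdkn2a call against water was lost without regressing replicate 1 or 2 (−4.67 and −4.39, adjusted p = 0.0772 and 0.0563), and that between outcomes without regressing replicate 1 (−4.47, adjusted p = 0.0658).

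Ccnd2 and the homeobox gene Meis1 separated the outcomes most firmly among the driver genes. Ccnd2 had 4.62, 4.06 and 7.65 CPM in progressing and 90.5, 55.3 and 123 CPM in regressing tumours, without overlap (a log2 difference of 4.04 ± 0.43 SE, adjusted p = 0.00308). Meis1 had 0.548 ± 0.198 CPM in progressing and 15.4 ± 1.45 CPM in regressing tumours (SD, n = 3; 4.80 ± 0.75 SE, adjusted p = 0.00973). Both calls were kept in all 6 fits that each left out 1 library. Bmi1, a Polycomb protein, was lower in regressing tumours (63.8 ± 4.54 against 174 ± 67.1 CPM, adjusted p = 0.0307), and kept its call only without progressing replicate 3 (adjusted p = 0.0394), the other fits giving 0.0616 to 0.128. In all, 5 of 41 driver genes were higher and 3 lower in regressing than in progressing tumours, against 6.45% and 6.18% of all genes (median log2 fold change 0.42 against −0.07 for all genes).

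A list of 20 growth and ribosome biogenesis genes that are commonly driven by MYC was read beside Myc. None passed as higher in either ATO group against water. In regressing tumours 15 of 20 were lower (median log2 fold change −1.96 against −0.11 for all genes), where 4.57% of all genes tested were lower. In progressing tumours 2 of 20 were lower (median −0.65 against −0.04 for all genes), where 7.13% of all genes tested were lower. Srm, spermidine synthase, had 183 ± 126 CPM after water (SD, n = 3), 53.5 ± 7.16 CPM in progressing and 18.6 ± 7.02 CPM in regressing tumours, and passed in both (adjusted p = 0.0346 and 0.00887). In progressing tumours Srm lost its call without water replicate 2 (−1.02, adjusted p = 0.0710) and without progressing replicate 1, 2 or 3 (adjusted p = 0.0874 to 0.0885). Npm1, nucleophosmin, had 2652 ± 1099.6 CPM after water and 483 ± 69.7 CPM in regressing tumours (adjusted p = 0.0140).

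So Myc passed as lower in both ATO groups, while the growth genes passed mostly in the regressing group. Between the outcomes, where Myc did not pass, 9 of 20 growth genes were lower in regressing tumours and 0 higher (median −1.14 against −0.07 for all genes), where 6.18% of all genes tested were lower. Odc1, ornithine decarboxylase, had 71.1 ± 22.3 against 490.3 ± 102 CPM (SD, n = 3, adjusted p = 0.00924), and Cad, which begins pyrimidine synthesis, 30.4 ± 11.7 against 151 ± 117 CPM (adjusted p = 0.0335). Odc1 lost its call without regressing replicate 1 (adjusted p = 0.0504), and Cad without any regressing replicate (adjusted p = 0.0691 to 0.129) or without progressing replicate 3 (−1.46, adjusted p = 0.109). Per library, the median log2 ratio of the 20 genes to the water mean was −0.25, 0.56 and −0.54 after water, −0.76, −0.59 and −0.75 in progressing and −2.25, −2.01 and −1.67 in regressing tumours. Each regressing library was below each progressing library in this median. The counts of calls changed when 1 library was left out. The 15 became 0 without regressing replicate 1 or 2. The 9 became 0, 2 and 2 without regressing replicates 1, 2 and 3, and 3 without progressing replicate 3. Without regressing replicates 1 and 2, sizes against water moved little for Srm (−3.05 and −3.25, from −3.29) and Npm1 (−2.35 and −2.44, from −2.46). All genes called against water also fell, from 1396 to between 60 and 1190 in the 6 fits that each left out 1 library.

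**Figure D5:**
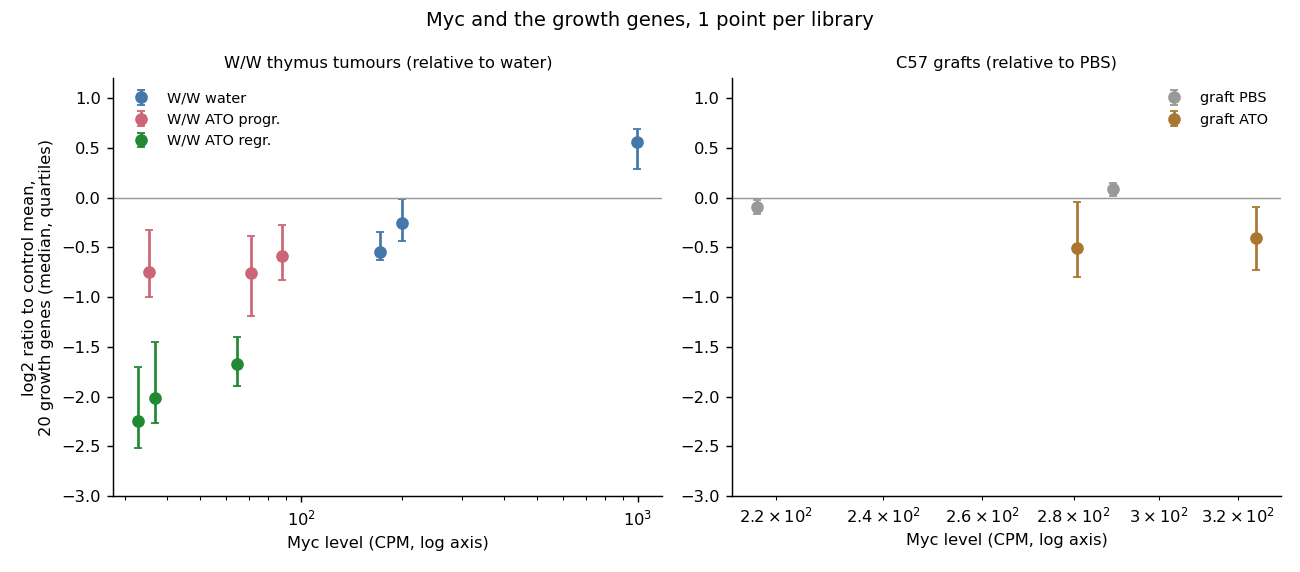
Median (point) and quartiles (bars) of the log2 ratio of 20 growth genes to the control mean, against the Myc level (CPM, log axis), 1 point per library; the left panel shows thymus tumours relative to water, the right panel grafts relative to PBS. Regressing and progressing libraries overlap in Myc, while the medians of the regressing libraries (−2.25 to −1.67) lie below those of the progressing libraries (−0.76 to −0.59).

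In the grafts the 9 genes held other levels, given here side by side because they come from a separate table with another number of genes. Notch1 had 476 and 515 CPM after PBS and 560.4 and 479.5 CPM after ATO, and the groups overlapped (log2 fold change 0.07 ± 0.20 SE, adjusted p = 0.846). Notch3 had 64.1 and 61.4 CPM after PBS and 104 and 46.0 CPM after ATO, with the ATO libraries on either side of PBS. Myc had 289 and 217 CPM after PBS and 281 and 325 CPM after ATO (0.26 ± 0.21 SE, adjusted p = 0.433). Thus neither the rise of Notch1 nor the fall of Myc seen against water in the thymus tumours passed in the grafts; the effects of ATO in the 2 systems were not tested against each other.

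Dtx1 and Hes1 were the graft members with the largest differences. Dtx1 was abundant, at 633 and 500.5 CPM after PBS and 437 and 235 CPM after ATO, without overlap (log2 fold change −0.75 ± 0.28 SE, adjusted p = 0.0872). Hes1 had 14.2 and 18.1 CPM after PBS and 9.52 and 3.02 CPM after ATO, also without overlap (−1.37 ± 0.48 SE, adjusted p = 0.0757). In both genes ATO replicate 2 was the lowest library, and both passed without ATO replicate 1 (Dtx1 −1.28, adjusted p = 0.000285; Hes1 −2.43, adjusted p = 1.61e-05), a fit in which the lone ATO library is assumed to vary like the PBS group. Without ATO replicate 2 the values were −0.39 and −0.78. DESeq2 called both (adjusted p = 0.0463 and 0.0313), and limma-voom called Hes1 (adjusted p = 0.0424).

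The other graft members differed less. Bcl11b had 310.2 and 343 CPM after PBS and 494 and 415 CPM after ATO, without overlap (0.48 ± 0.20 SE, adjusted p = 0.129). Ikzf1 had 271 and 316 CPM against 335 and 332 CPM (adjusted p = 0.556), Lmo2 4.80 and 5.24 CPM against 4.06 and 4.14 CPM (adjusted p = 0.670), and Nrarp 2.33 and 2.69 CPM against 1.55 and 2.89 CPM (adjusted p = 0.853). The T-cell marker sums were 6026 to 7343 CPM after PBS and 3669.9 to 4753 CPM after ATO, and counts from the mitochondrial genome were 0.521% to 1.02% after PBS and 4.03% to 5.98% after ATO. Their part in the Dtx1 and Hes1 differences was not tested.

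Other Notch pathway genes did pass in the grafts: of 56 tested, 6 were higher and 2 lower after ATO, where 7.37% and 6.57% of all genes tested were (median log2 fold change 0.28 against 0.04 for all genes). Higher were the receptor Notch2 (34.8 ± 0.119 against 15.7 ± 0.831 CPM, SD, n = 2, adjusted p = 0.0177), the ligand Jag1 (13.4 ± 3.05 against 5.51 ± 0.178 CPM, adjusted p = 0.0410), the corepressor Spen (65.8 ± 14.2 against 27.1 ± 9.91 CPM, adjusted p = 0.0173) and the acetyltransferase Crebbp (63.0 ± 10.7 against 34.3 ± 0.0617 CPM, adjusted p = 0.0271). Lower were Ptcra (47.4 ± 30.4 against 129.5 ± 66.5 CPM, adjusted p = 0.0423) and Mfng (55.6 ± 3.33 against 102.8 ± 11.6 CPM, adjusted p = 0.0203). Without PBS replicate 1 none of the 8 passed, and Ptcra moved to −0.82 (adjusted p = 0.221), from −1.45. Without ATO replicate 1 or 2 it was −2.33 or −0.93, and DESeq2 did not call it (adjusted p = 0.234). Jag1 also lost its call without PBS replicate 2 or ATO replicate 2 (adjusted p = 0.119 and 0.117), and Crebbp without PBS replicate 2 or ATO replicate 1 (adjusted p = 0.0787 and 0.110).

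The fibroblast and pericyte markers summed to 489 and 244 CPM after PBS and 643 and 1666 CPM after ATO, and the endothelium markers to 211 and 199.6 CPM and to 219 and 291 CPM. Both sums were higher in each ATO graft than in each PBS graft, and their part in the graft values of Notch2, Jag1 and Mef2c was not tested.

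Of 36 driver genes tested in the grafts, Mef2c (12.9 ± 1.17 against 2.38 ± 1.27 CPM, SD, n = 2, adjusted p = 0.0107) and the kinase Cdk6 (479 ± 55.4 against 252 ± 57.9 CPM, adjusted p = 0.0228) were higher after ATO, and Spi1 (6.08 ± 0.690 against 15.4 ± 5.23 CPM, adjusted p = 0.0376) was lower. Of all genes tested in the grafts, 7.37% were higher and 6.57% lower. The call of Mef2c was kept in all 4 fits that each left out 1 library, and those of Cdk6 and Spi1 were lost without PBS replicate 1 (adjusted p = 0.177 and 0.302). Macrophage markers, a cell type in which Spi1 is high, summed to 280 to 373 CPM after PBS and 102 to 135 CPM after ATO, and their part in the Spi1 difference was not tested. Of the 20 growth genes, 6 were lower and 0 higher (median −0.36 against 0.04 for all genes), where 6.57% of all genes tested were lower. Odc1 (226 ± 53.6 against 522 ± 12.4 CPM, adjusted p = 0.0102) and Mrto4 (94.5 ± 11 against 192 ± 30.9 CPM, adjusted p = 0.0140) led them, with Myc not passing. The count of lower growth genes was 1 without PBS replicate 1, 7 without PBS replicate 2, and 4 and 6 without ATO replicates 1 and 2.

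Across the 9 thymus libraries, the genes whose levels followed each member most closely were sought by Pearson's r of log2(CPM + 1). The search covered the 10537 tested genes whose mean reached 10 CPM. The libraries share their groups and depth, so the values are descriptions. For Notch1 they were Pcnx4 (0.974) and Blzf1 (0.973), for Notch3 Usp54 (0.984) and Arhgap12 (0.971), and for Dtx1 Skp2 (0.940) and Eapp (0.939). Skp2 is a substrate receptor of a ubiquitin ligase of the cell cycle. For Hes1 they were Tmem41b (0.867) and Afdn (0.839), the loosest pair, and for Nrarp Spg20 (0.966) and Seh1l (0.951). For Myc they were Timm17b (0.981) and Mrps18a (0.974), parts of mitochondrial protein import and of the mitochondrial ribosome. For Lmo2 they were Hyou1 (0.986), a chaperone of the endoplasmic reticulum, and Csf2rb2 (0.985), for Ikzf1 Whamm (0.965) and Tlk1 (0.965), and for Bcl11b Hbp1 (0.987) and Btbd7 (0.984). No member was among the 2 closest genes of another member.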

How the data were processed

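RNA-seq of 9 W/W thymus tumours and 4 C57 grafts was read from the authors' deposited tables of raw counts per gene; 2 U937 libraries were not used here. Deposited FPKM values, made by the authors, were used only to compare genes per length. The submitters' processing notes name FastQC 0.10.1, cutadapt 1.9.1, HISAT2 2.0.1 and GRCm38 (mm10); the counting program, its strand setting and the annotation are not given in the sources used here. Counts were filtered with filterByExpr (18119 thymus and 15468 graft genes left), scaled by TMM and tested with the quasi-likelihood test of edgeR 4.0.16 in R 4.3.3, with Benjamini-Hochberg adjustment. The 3 thymus groups shared 1 fit and the grafts had their own. The SE is the log2 fold change divided by the square root of F. DESeq2 1.42.0, limma-voom (limma 3.58.1), RLE, no filter, a replicate block and single-library omissions were alternatives. The 9 genes, the pathway, driver, growth and marker lists and the tests were chosen with earlier results of these data known. Named besides the 9 were, per comparison, up to 6 pathway or driver genes with the largest rises and 6 with the largest falls, and 2 growth genes each way, past the threshold and with a mean of at least 1 CPM; other receptors and ligands may be named for their levels. The scripts were tested on simulated data.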

Additional observations from a re-analysis of the deposited data

Results flagged for a closer look

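The direct test between regressing and progressing tumours, both from ATO-treated mice, passed for 1 of the 9 genes and for 12.6% of all genes tested (6.45% higher and 6.18% lower). Besides the 9, it passed as higher for 6 of 58 pathway, 5 of 41 driver and 0 of 20 growth genes, and as lower for 1, 3 and 9. Of these, 12 are named by the rule given above. Notch1 was lower in regressing tumours (log2 fold change −2.05, all 3 regressing libraries below all 3 progressing libraries). Also lower were the cell-cycle inhibitors Cdkn2a (−4.70) and Cdkn2b (−3.23), the Polycomb gene Bmi1 (−1.45), the acetyltransferase Kat2a (−0.99) and the growth genes Odc1 (−2.79) and Cad (−2.31). Higher in regressing tumours were Meis1 (4.80), Hey2 (4.20), the cyclin Ccnd2 (4.04), Il2ra (3.19), the ligand Dll1 (2.80) and the co-activator Maml2 (2.74). Ccnd2 and Meis1 kept their calls whichever library was left out. The thymic epithelium markers (1466 to 1673 CPM in regressing, 39.3 to 96.7 CPM in progressing tumours) and the fibroblast and pericyte markers (121 to 415 CPM and 737 to 1323 CPM) differed between the same groups, and their part in these results was not tested.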

How the results depend on the processing

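Of 441 values of the 9 genes under alternatives, 354 kept direction and side of the threshold, 30 lost the threshold, 21 gained it and 36 turned sign; no called value turned sign. Of the alternatives, leaving out both libraries of low TMM factor and crossing the graft pairs were chosen after seeing the data. The cause of the moves was not tested. Genes called numbered 1396 in regressing tumours against water (DESeq2 3354, no filter 2689, 60 to 1190 leaving out 1 library), 2157 in progressing tumours against water (DESeq2 3733, no filter 3594, only compared groups 882, 907 to 2557 leaving out 1 library), 2289 between outcomes (DESeq2 4121, no filter 3621, without both libraries of low TMM factor 3645, 177 to 2000 leaving out 1 library) and 2157 in the grafts (no filter 3274, 685 to 2420 leaving out 1 library). Of the 9 genes, 3 passed in regressing tumours against water (0 to 3 leaving out 1 library) and 5 in progressing tumours (only compared groups 2, leaving out 1 library 2 to 4). Between outcomes 1 passed (DESeq2 2, limma-voom 0, no filter 4, only compared groups 2, without the libraries of low TMM factor 3, leaving out 1 library 0 to 1), and in the grafts 0 (DESeq2 2, limma-voom 1, no filter 2, leaving out 1 library 0 to 2).

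With the replicate number as a block, 1405 genes were called in progressing tumours and 1350 in the grafts, and 0 of the 9 genes between outcomes. The thymus numbers are shared labels only: correlations of same-numbered deviations were −0.124 to 0.136 and 3 of 9 samples correlated best with their own number. The graft correlation was −0.13, and the crossed pairing called 3298 genes and 2 of the 9.

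Sign changes fell on differences that did not pass. Dtx1 in regressing tumours against water (−0.06) became 0.0313 with RLE, 0.0307 with DESeq2, 0.0333 with the block, 0.54 with limma-voom, 0.0538 with no filter, 0.0683 with only compared groups and 0.97 without the libraries of low TMM factor, and ran from −0.56 to 0.94 leaving out 1 library. Nrarp in that comparison became 0.19 without the libraries of low TMM factor (−0.80 to 0.21 leaving out 1 library). Nrarp in progressing tumours (−0.02) became 0.0223 with RLE, 0.0183 with only compared groups, 0.0254 with DESeq2, 0.11 with limma-voom, 0.036 with no filter, 0.0512 with the block and 0.82 without the libraries of low TMM factor (−0.48 to 0.60 leaving out 1 library). Between outcomes Ikzf1 (−0.01) became 0.0433 with RLE and DESeq2, 0.083 with no filter and 0.22 without the libraries of low TMM factor (−0.15 to 0.18 leaving out 1 library), and Hes1 −0.15 without those libraries (−0.18 to 0.61 leaving out 1 library). Leaving out 1 library also gave −0.67 to 0.0334 for Nrarp and −0.15 to 0.85 for Lmo2 between outcomes, and −0.0597 to 0.16 for Notch1, −0.46 to 0.71 for Notch3 and −0.71 to 0.19 for Nrarp in the grafts. Of 630 values of the named list genes, 482 kept their call, 148 lost it and none turned sign. With 2 or 3 libraries per group, a difference that did not pass was not shown to be absent.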

Other observations

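Levels of 2 T-lineage genes of the driver list varied between the progressing libraries; they were chosen after their values were seen. Tcf7, a transcription factor of early T cells, had 328, 2051 and 707 CPM in the progressing replicates, against 571 to 679 CPM after water and 1341 to 2666 CPM in regressing tumours. Gata3, which directs T-cell development, had 35.6, 169.7 and 71.5 CPM in the progressing replicates and 41.1 to 56.8 CPM in regressing tumours. For both genes progressing replicate 2 was the highest of its group and replicate 1 the lowest.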
